A study of Mus musculus with 6 samples.

Results

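The transcripts of 10 neutrophil granule proteins were followed in whole lungs of wild-type (WT) and ISM1-/- mice. The 10 genes were chosen by symbol from the 54532 genes of the deposited count table: *Mpo*, *Elane* and *Prtn3* for the primary (azurophil) granules, *Ngp*, *Camp*, *Ltf*, *Lcn2* and *Mmp8* for the secondary (specific) granules, and *Mmp9* and *Retnlg* for the late stage of granule formation. Lungs of 3 WT and 3 ISM1-/- mice, all untreated and 2 months old, were perfused with cold PBS and gave 1 poly-A RNA library each. The WT mice were purchased C57BL/6J animals and the ISM1-/- mice, labelled ISM1-KO, were bred in-house on that background, so a difference in genotype and one in origin cannot be told apart. The sex of the animals was not given in the sources used here. Libraries held between 37606133 and 42345042 counts. *Ism1* itself, which encodes the secreted protein isthmin 1, had 3098, 3215 and 2975 counts in WT and 2784, 2508 and 2953 in the libraries labelled ISM1-/-, so transcript of the targeted gene remained and the counts do not by themselves show the genotype.

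Neutrophils are short-lived white blood cells that kill microbes with proteins stored in granules. The granules are filled in order while the cell matures in the bone marrow: primary granules at the promyelocyte stage, specific granules at the myelocyte stage and gelatinase granules later. The transcripts follow the same order, so that mRNA of *Mpo*, *Elane* and *Prtn3* is largely lost before a neutrophil enters the blood, while *Mmp9* and *Retnlg* are transcribed in mature cells. Lactoferrin and lipocalin 2, encoded by *Ltf* and *Lcn2*, are also secreted by epithelial cells of the airways. The comparison of the genotypes asks which stage of this sequence can be seen in the lung, and whether it differs without ISM1.

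Levels between genes were compared as deposited FPKM, which the paper describes as accounting for sequencing depth and gene length. For *Mpo*, *Prtn3*, *Ltf*, *Lcn2* and *Mmp9* these values do not follow from the counts and the deposited gene length. In WT replicate 1, *Ltf* had 2139 counts, 3450 bases and 83.5 FPKM, where *Retnlg* had 98 counts, 593 bases and 4.39 FPKM. By deposited length *Retnlg* would lie above *Mmp9* in both genotypes, and *Mmp8* above *Prtn3* in WT. The order below is that of the FPKM only. *Lcn2* had the highest level, at 116 ± 9.18 FPKM in WT and 116 ± 9.61 FPKM in ISM1-/- (SD, n = 3 each, here and below). *Ltf* followed at 79.1 ± 4.89 FPKM in WT and 63.1 ± 9.87 FPKM in ISM1-/-. Far below them came *Mmp9* at 7.57 ± 1.10 FPKM and *Retnlg* at 4.72 ± 1.24 FPKM in WT. *Prtn3* and *Mmp8*, at 1.24 ± 0.196 and 1.04 ± 0.124 FPKM in WT, did not differ beyond their spread. *Ngp* stood at 0.164 ± 0.125 FPKM in WT. *Elane*, *Camp* and *Mpo* were each under 0.05 FPKM in the WT mean, and these 3 genes could not be ordered at so few counts. In ISM1-/- the first 4 genes kept this order, but *Mmp9* (9.67 ± 2.63 FPKM) and *Retnlg* (8.78 ± 4.13 FPKM) no longer differed beyond their spread. *Mmp8* (1.22 ± 0.108 FPKM) came next by mean, followed by *Ngp* (0.868 ± 0.293 FPKM) and *Prtn3* (0.766 ± 0.156 FPKM). The range of *Ngp* overlapped those of both *Mmp8* and *Prtn3*.

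**Figure D1:**
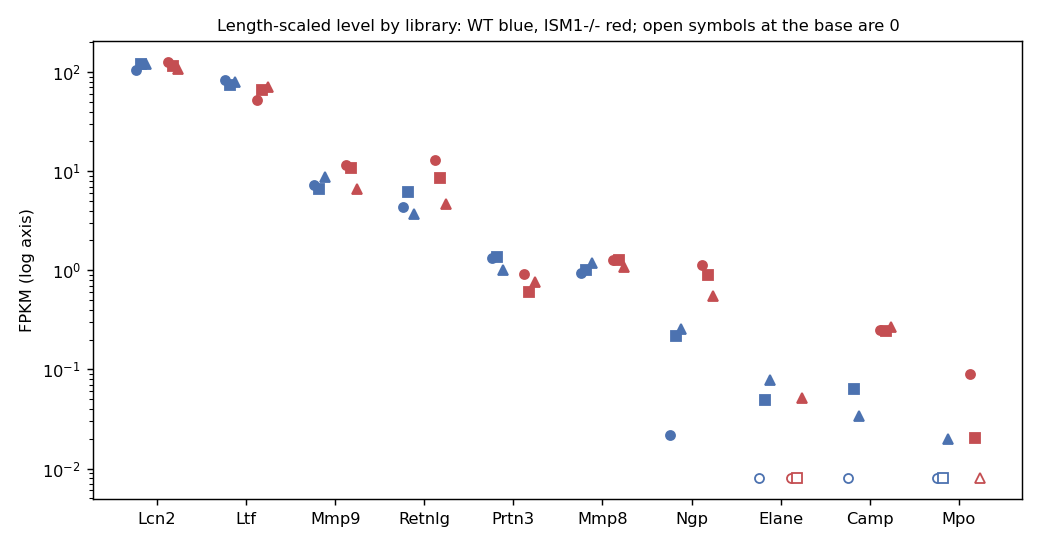
Length-scaled level (FPKM, log axis) of the 10 granule genes in each library, ordered by the WT mean, with WT in blue and ISM1-/- in red and circles, squares and triangles for replicates 1, 2 and 3. Open symbols at the base stand for 0. The order depends on the length behind the FPKM, which is not the deposited gene length for every gene. *Lcn2* and *Ltf* lie above all other members in every library, and the red symbols of *Ngp* and *Camp* lie above the blue ones.

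Of the 10 genes, 7 passed the filter of 0.5 CPM (counts scaled to the library total) in at least 1 library, and *Mpo*, *Elane* and *Camp* did not. The genotypes were tested against each other by quasi-likelihood in edgeR, with Benjamini-Hochberg adjustment over 18689 genes, and a gene was called at an adjusted p under 0.1 (SE is the standard error of a log2 fold change). By this rule 1 of the 7 genes, *Ngp*, was higher in ISM1-/- and 0 were lower, where 1.38% of all genes tested were called higher and 3.34% lower. At an unadjusted p under 0.05 there were 2 higher (*Ngp* and *Retnlg*) and 2 lower (*Ltf* and *Prtn3*), beside 6.48% and 9.3% of all genes tested. The DESeq2 Wald test on the same genes called *Ngp* and *Retnlg* higher and *Ltf* lower, beside 2.7% higher and 4.75% lower of the 17233 genes to which it gave an adjusted p. The median log2 fold change of the 7 genes was 0.23, beside 0.004 over all genes tested. The genotypes did not overlap in 3 of the 7 genes: 1 was higher in ISM1-/- (*Ngp*), beside 9.33% of all genes tested, and 2 were lower (*Ltf* and *Prtn3*), beside 12.3%, or 21.6% in either direction.

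Of the primary granule genes, *Mpo* and *Elane* were at the limit of detection. *Mpo*, which encodes myeloperoxidase, had 0, 0 and 1 counts in WT and 5, 1 and 0 in ISM1-/-. *Elane*, the gene of neutrophil elastase (chromosome 10, 79886247 to 79888215, GRCm38), had 0, 2 and 3 counts in WT and 0, 0 and 2 in ISM1-/-. Both genes overlapped between the genotypes. The ratio of summed counts, ISM1-/- over WT, was 5.92 for *Mpo* (95% exact interval 0.718 to 272) and 0.395 for *Elane* (0.0376 to 2.41). These intervals cover counting error only, and no difference was detectable at this depth. Other genes of the same stage were as rare: *Ctsg* (cathepsin G) had 2 counts over the 6 libraries together, *Ms4a3* (a marker of granulocyte and monocyte progenitors) 2, *Fcnb* (ficolin B of immature myeloid cells) 3 and *Bpi* 1.

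*Prtn3*, which encodes proteinase 3 and lies 3.1 kb from *Elane*, was the exception in this class. It had 35, 39 and 27 counts in WT and 27, 16 and 21 in ISM1-/-, which is 0.855 ± 0.136 CPM against 0.532 ± 0.107 CPM after TMM scaling. The genotypes did not overlap in CPM, and the log2 fold change was −0.68 (SE 0.288), but the gene did not pass (edgeR adjusted p = 0.284). The deposited gene model of *Prtn3* (chromosome 10, 79874476 to 79883174, forward strand) starts 5191 bases before the RefSeq start of the gene. Only its first bases, 79874476 to 79874634, overlap *Plppr3* on the reverse strand (79860475 to 79874634), a gene with a mean of 302.8 counts per library. The paper describes the libraries as strand-specific, but whether the counting used the strand is not stated. Whether reads from the 2 genes were told apart there is therefore not known. The counts of *Prtn3* are uncertain as a measure of proteinase 3 mRNA.

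*Ngp* and *Camp* were higher in every ISM1-/- library than in any WT library. *Ngp* encodes neutrophilic granule protein, a cystatin-like relative of the cathelicidins, and *Camp* encodes cathelicidin, the precursor of the antimicrobial peptide CRAMP. *Ngp* had 1, 11 and 12 counts in WT and 59, 42 and 27 in ISM1-/-, so every ISM1-/- library lay above every WT library, and WT replicate 1 was the lowest by far. In CPM this is 0.201 ± 0.152 in WT and 1.06 ± 0.350 in ISM1-/-, a log2 fold change of 2.38 (SE 0.531, edgeR adjusted p = 0.0504). None of the 3 WT libraries reached 0.5 CPM, so *Ngp* entered the test only through the ISM1-/- libraries, in which it is high, and the call is given with that limit. With each library omitted in turn, 3 of 6 fits kept the call. Without WT replicate 2, ISM1-/- replicate 1 or ISM1-/- replicate 2 the log2 fold change was 2.63, 2.13 or 2.35 and the adjusted p from the same test 0.137, 0.175 or 0.152.

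*Camp* had 0, 2 and 1 counts in WT and 8, 7 and 8 in ISM1-/-. The 2 genotypes did not overlap, and the 3 ISM1-/- libraries were nearly equal at 0.188, 0.184 and 0.205 CPM. The ratio of summed counts was 7.56 (95% exact interval 2.29 to 39.4, counting error only), beside 5.26 (3.38 to 8.51) for *Ngp*. *Camp* was under the filter of the main test. When no filter was set, edgeR's quasi-likelihood test over 31946 genes gave it a log2 fold change of 2.77 (SE 0.905, edgeR adjusted p = 0.0834). *Olfm4*, which encodes olfactomedin 4 of a subset of specific granules, was also under the filter, with 9 counts in WT and 28 in ISM1-/-, and overlapped between the genotypes. *Cebpe*, the gene of the transcription factor C/EBP epsilon that specific granule genes require, had 5 counts in WT and 15 in ISM1-/- and was not tested either.

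*Camp*, *Ngp* and *Ltf* lie within 1195 kb of chromosome 9. Because *Ngp* and *Camp* were both higher in ISM1-/- and are known targets of C/EBP epsilon, the bases just before their deposited gene models are shown (RefSeq promoter windows, GRCm38.p6), each 5′ to 3′ on the strand of its gene. The *Ngp* stretch is chr9:110419558-110419746 (forward strand) and the *Camp* stretch is chr9:109849618-109849706 (reverse strand). Capitals mark a match to TTGCNNAA, a degenerate form of the C/EBP motif searched on both strands.
Ngp: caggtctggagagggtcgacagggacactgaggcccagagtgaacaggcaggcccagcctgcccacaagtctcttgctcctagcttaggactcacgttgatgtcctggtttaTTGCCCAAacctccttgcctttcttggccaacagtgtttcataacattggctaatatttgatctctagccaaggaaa
Camp: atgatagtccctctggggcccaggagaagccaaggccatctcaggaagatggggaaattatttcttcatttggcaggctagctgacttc
In the whole windows of 300 bases, TTGCNNAA was found for 5 of the 9 members with an entry (*Lcn2*, *Ltf*, *Mmp8*, *Ngp* and *Retnlg*) and in 10.8% of all 32851 promoter windows. GAGGAA, a core of PU.1 sites, was found for 6 of the 9 (*Elane*, *Lcn2*, *Ltf*, *Mmp8*, *Mpo* and *Prtn3*) and in 28.3% of all windows. The letters of the motifs differ, and *Mmp9* had no entry.

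**Figure D2:**
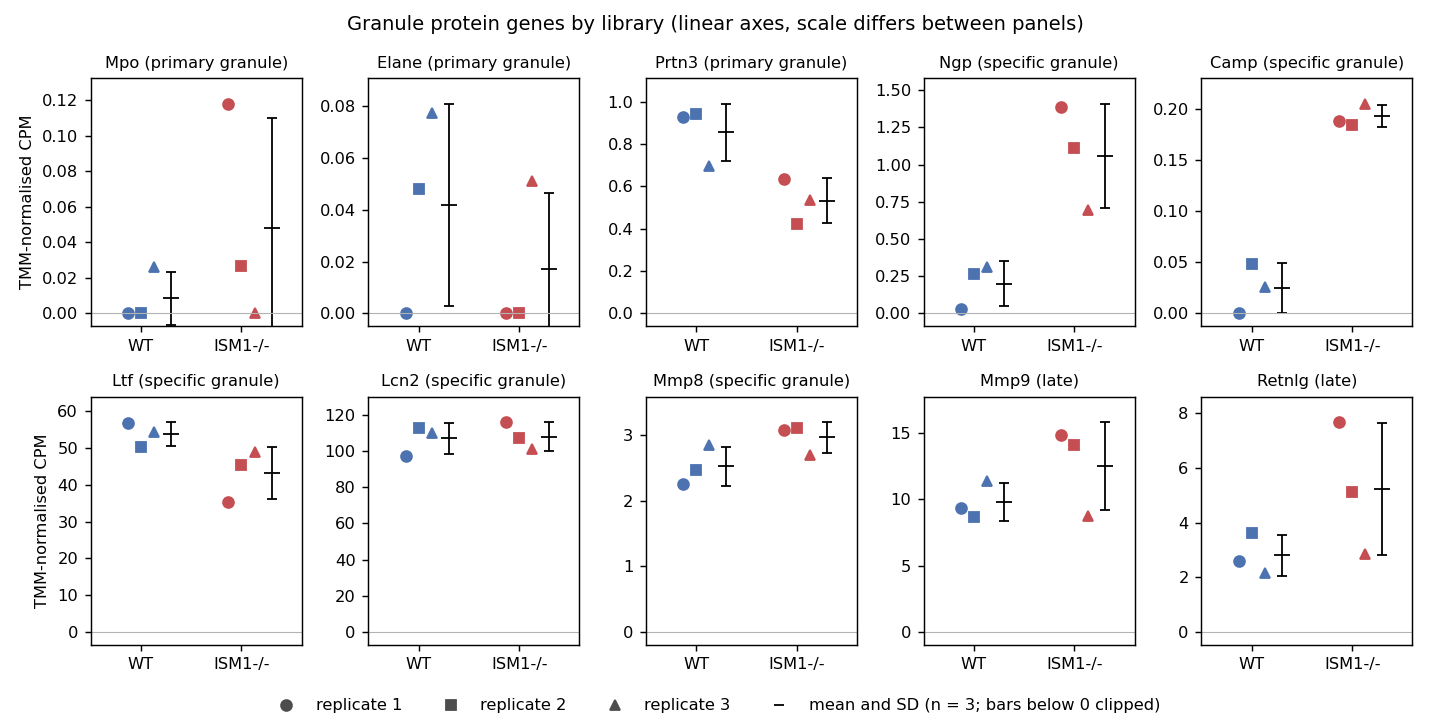
TMM-normalised CPM of each granule gene in each library on linear axes that differ between panels, with circles, squares and triangles for replicates 1, 2 and 3 and bars for the mean and SD (n = 3). The genotypes are apart in *Ngp*, *Camp*, *Ltf* and *Prtn3* and overlap in the other panels, where ISM1-/- replicate 3 often lies among the WT values.

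*Ltf* went the other way from *Ngp* and *Camp*. It had 2139, 2087 and 2099 counts in WT and 1499, 1717 and 1912 in ISM1-/-, or 53.8 ± 3.25 CPM against 43.2 ± 7.11 CPM. Every ISM1-/- library lay below every WT library, with ISM1-/- replicate 1 lowest. The log2 fold change was −0.32 (SE 0.111), and the gene did not pass (edgeR adjusted p = 0.187). Without ISM1-/- replicate 3 the same test gave −0.42 with an adjusted p of 0.0672.

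Markers of secretory airway epithelium, which also makes lactoferrin, were read beside *Ltf*. Of the 6 other genes of that list, 4 fell and 0 rose, where 3.34% of all genes tested were called lower. *Scgb1a1* (the secretoglobin of club cells) fell by 0.51, *Cyp2f2* (a club cell cytochrome P450) by 0.42, *Scgb3a2* by 0.37 and *Bpifa1* (an antimicrobial airway protein) by 0.82 on the log2 scale. *Scgb3a1* and *Muc5b* were at −0.06 and −0.18 and did not pass. The median of the 6 genes was −0.40. The summed level of the 6 genes was between 24000 and 25800 CPM in WT, and 15700, 17300 and 19700 CPM in ISM1-/- replicates 1, 2 and 3. *Ltf* stood at 65.6%, 84.2% and 91.1% of the WT mean in these 3 libraries, *Scgb1a1* at 61.9%, 69% and 79.5%, and *Bpifa1* at 42.5%, 52% and 75.2%. *Cyp2f2*, at 71.5%, 75.6% and 76.6%, had this order of libraries too. The other 3 genes of the list did not: *Scgb3a2* stood at 75.8%, 70.4% and 85.9%, *Scgb3a1* at 99.8%, 90.4% and 97%, and *Muc5b* at 104%, 81.4% and 79%. Within WT the order of *Ltf* (106%, 93.5% and 101%) was not that of *Scgb1a1* (97.3%, 98% and 105%). The part of airway epithelium in the values of *Ltf* was not tested. Over the fits that left out 1 library, between 0 and 4 of the 6 genes were called lower, with 0 without WT replicate 2, 2 without ISM1-/- replicate 1 and 1 without ISM1-/- replicate 2.

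*Lcn2* overlapped between the genotypes. It had 3656, 4685 and 4269 counts in WT and 4946, 4050 and 3927 in ISM1-/-, with WT replicate 1 the lowest and ISM1-/- replicate 1 the highest. Its mean was 107 ± 8.56 CPM in WT and 108 ± 7.90 CPM in ISM1-/-. The log2 fold change of 0.02 (SE 0.0769, edgeR adjusted p = 0.953) was the closest to 0 of the members tested and changed sign without WT replicate 1 or ISM1-/- replicate 1. *Hp*, the gene of haptoglobin, which is stored in specific granules and also made by lung epithelium, fell by 0.38 on the log2 scale (SE 0.0805, edgeR adjusted p = 0.0426), from 809 to 620 CPM.

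**Figure D3:**
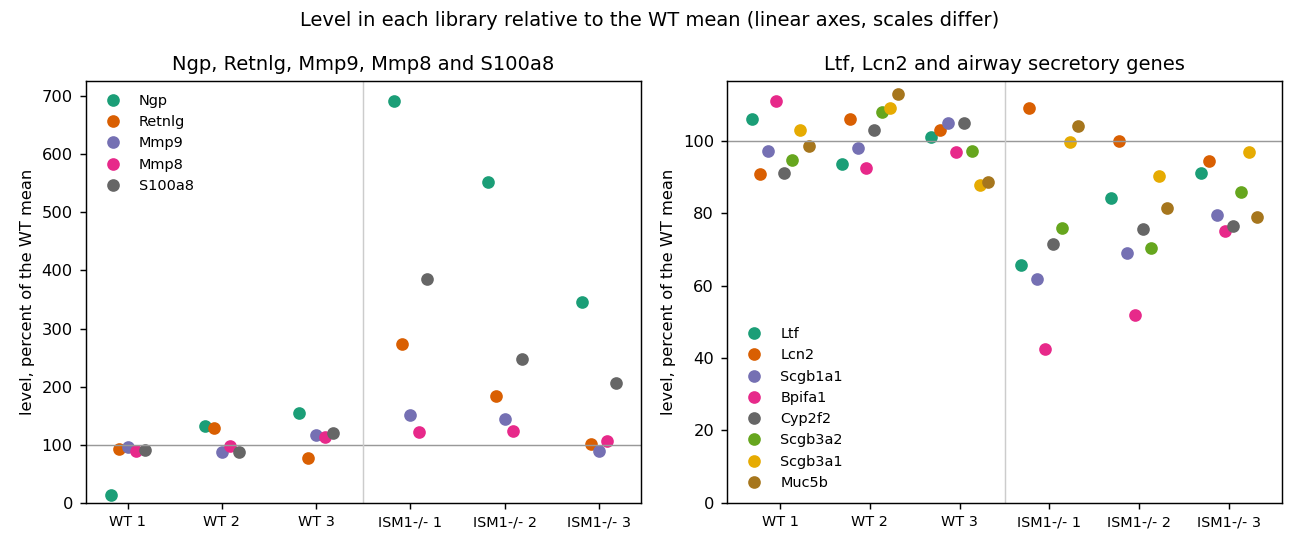
Level of single genes in each library as a percentage of the WT mean, on linear axes that differ between the panels. At left, *Ngp*, *Retnlg* and *S100a8* are highest in ISM1-/- replicate 1 and stay above 100% in all ISM1-/- libraries, while *Mmp9* is at 89.4% in replicate 3. At right, *Ltf* and the airway genes *Scgb1a1*, *Bpifa1*, *Cyp2f2* and *Scgb3a2* lie below 100% in the ISM1-/- libraries, *Muc5b* reaches 104% and *Scgb3a1* 99.8% there, and *Lcn2* stays between 90.8% and 109% in all libraries.

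The late genes *Mmp9* and *Retnlg* and the specific granule protease gene *Mmp8* were higher on average in ISM1-/-, but none of them passed. *Retnlg* encodes resistin-like gamma, a secreted protein made by mature mouse neutrophils. It had 98, 150 and 84 counts in WT and 326, 194 and 111 in ISM1-/-, so that ISM1-/- replicate 3 lay below WT replicate 2. The mean was 2.80 ± 0.741 CPM in WT and 5.21 ± 2.41 CPM in ISM1-/-, a log2 fold change of 0.90 (SE 0.323, edgeR adjusted p = 0.201). Without ISM1-/- replicate 3 it was 1.19 with an adjusted p of 0.0334, and without ISM1-/- replicate 1 it was the smallest of the 6 such fits, at 0.51.

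*Mmp9*, the gene of gelatinase B, had 352, 358 and 439 counts in WT and 628, 535 and 341 in ISM1-/-. ISM1-/- replicates 1 and 2 lay above all WT libraries, and replicate 3 lay among them. Its log2 fold change was 0.36 (SE 0.187, edgeR adjusted p = 0.394). This also depended on replicate 3, since without that library the value was 0.57 with an adjusted p of 0.0378. *Mmp8*, which encodes neutrophil collagenase, had 85, 102 and 110 counts in WT and 131, 118 and 105 in ISM1-/-, and overlapped, with a log2 fold change of 0.23 (SE 0.164, edgeR adjusted p = 0.550). As *Mmp9* and *Lcn2* are transcribed by other lung cells as well, and the libraries are from whole lung, a change in the number of cells and a change in RNA per cell cannot be told apart for any of these genes.

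Ratios within a library do not depend on its scaling. Within the late class, the ratio of *Retnlg* to *Mmp9* CPM was 0.278, 0.419 and 0.191 in WT and 0.519, 0.363 and 0.326 in ISM1-/-. That of *S100a8*, a gene of mature neutrophils, to *Retnlg* was 1.82, 1.27 and 2.88 in WT and 2.61, 2.51 and 3.77 in ISM1-/-. Both ratios overlapped between the genotypes. The ratio of *Mmp9* to *Ngp* was 352, 32.5 and 36.6 in WT and 10.6, 12.7 and 12.6 in ISM1-/-, without overlap. As its denominator is the member with the largest fold change of the 7 tested, this ratio restates the level of *Ngp* and is no separate result, and its highest WT value rests on the single *Ngp* count of WT replicate 1. An exact permutation test over 3 libraries against 3 cannot give a two-sided p under 0.1, so no p is given.

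The late and the specific classes had no stable difference between the genotypes. The primary class less the specific class was lower in ISM1-/- under every alternative run. Each of these alternatives kept *Ngp* and *Camp*, already seen to be higher, in the class subtracted, so this sign is no separate result. The mean log2(CPM + 0.1) of *Mmp9* and *Retnlg* less that of *Ngp*, *Camp* and *Ltf* was 2.49, 2.03 and 1.85 in WT and 2.12, 1.78 and 1.16 in ISM1-/-, a difference of −0.44 with overlap. This difference was −0.09 when *Lcn2* and *Mmp8*, specific granule genes that the score leaves out, were added. It was −1.10 with *Ngp* and *Camp* alone, without *Ltf*, the one member of the class that was lower in ISM1-/-. It was 0.73 when CPM were summed in each class, where *Ltf* outweighs *Ngp* and *Camp*. The same measure for the primary genes *Mpo*, *Elane* and *Prtn3* was −2.04, −2.49 and −2.43 in WT and −3.30, −3.74 and −3.42 in ISM1-/-, a difference of −1.16 without overlap. It lay between −1.83 and −0.26 over the alternatives. It rests on the *Ngp* and *Camp* values already given, on *Prtn3*, whose counts are uncertain, and on genes at single counts. These levels are given with no test.

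Other genes of the same biology were taken from lists of known function, which were chosen with earlier results of these data known. The paper had already reported *S100a8* and *S100a9* as upregulated in ISM1-/- lungs. The number of mature neutrophil genes called is therefore no independent result. Among 13 genes of mature neutrophils, 11 were tested, 5 rose and 1 fell, where 4.72% of all genes were called in either direction, and their median log2 fold change was 0.81. The genes that rose were *S100a8* (1.49) and *S100a9* (1.46), the subunits of calprotectin, the chemokine receptor gene *Cxcr2* (1.21), *Clec4d* (0.81), a C-type lectin receptor, and *Csf3r* (0.70), the receptor of the growth factor G-CSF, all as log2 fold changes. *Csf3r* overlapped between the genotypes and was close to the threshold (edgeR adjusted p = 0.097). *G0s2*, a lipolysis inhibitor that fat and other cells also express, fell by 0.47. The other tested genes did not pass: *Cxcr1*, *Il1r2* and *Clec4e* were at 0.89, 0.98 and 0.28, and *Trem1* and *Hdc* at −0.03 and −0.30. For *Hdc* every ISM1-/- library lay below every WT library (edgeR adjusted p = 0.107). *Ly6g*, the antigen that defines mouse neutrophils, had 8 counts in WT and 14 in ISM1-/- and was not tested. DESeq2 called 4 of the 11 higher and 2 lower, beside 2.7% and 4.75% of the genes to which it gave an adjusted p. Between 2 and 5 genes of the list were called higher in the edgeR fits that left out 1 library. It was 2 without WT replicate 1, WT replicate 2, ISM1-/- replicate 1 or ISM1-/- replicate 2.

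**Figure D4:**
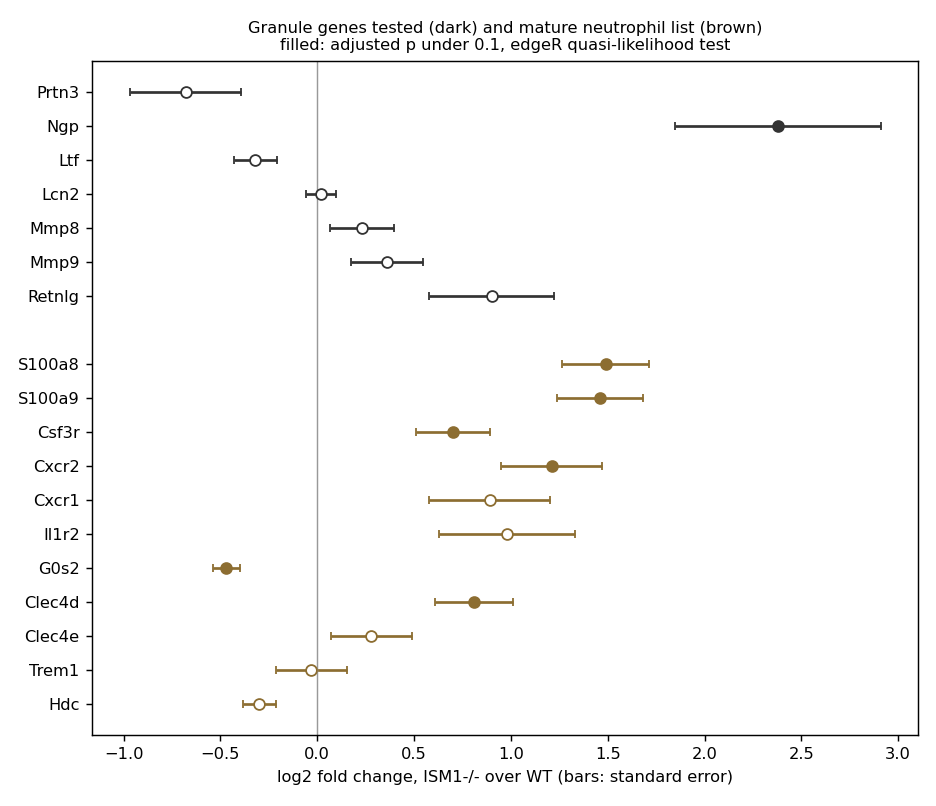
Log2 fold change, ISM1-/- over WT, with its standard error for the 7 granule genes tested (dark) and the 11 tested genes of the mature neutrophil list (brown). Filled symbols have an adjusted p under 0.1 in edgeR's quasi-likelihood test. *Ngp* is the one filled granule gene, at 2.38, and *Lcn2* lies at 0.02.

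Other granule proteins moved little. Of 7 further azurophil granule genes, 4 were tested and 0 were called, with a median of −0.08. The most abundant were *Lyz2* (lysozyme, −0.10), *Ctsc* (the dipeptidase that activates granule proteases, 0.08) and *Cd63* (a granule membrane tetraspanin, −0.08), which macrophages and other lung cells also express. Of 17 genes of specific, gelatinase and secretory granules, 16 were tested, 0 were called higher and 1, *Hp*, lower, with a median of 0.06. Of all genes tested, 3.34% were called lower. *Mmp25* (the leukocyte membrane-type metalloprotease) was at 0.75 without overlap and an adjusted p of 0.158, and *Pglyrp1* (a peptidoglycan recognition protein) was at 0.36 with an adjusted p of 0.291, both from edgeR. *Chil3* and *Anxa1*, the most abundant after *Hp*, were at −0.15 and 0.00.

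Among 10 regulators of granule genes, 8 were tested, 0 rose and 2 fell, where 3.34% of all genes tested were called lower. *Cebpb* fell by 0.47 (SE 0.127, edgeR adjusted p = 0.0967) and *Cebpd* by 0.87 (SE 0.235, edgeR adjusted p = 0.0966), both close to the threshold. *Cebpd* overlapped, with WT counts of 2226, 5407 and 4767 and ISM1-/- counts of 2420, 2005 and 2410. *Cebpa*, the most abundant, was at −0.28 and did not pass, and *Spi1* (PU.1) and *Gfi1* were at 0.04 and −0.08. Several of these factors, *Cebpa*, *Cebpb* and *Cebpd* among them, also act in lung cells other than neutrophils. Without WT replicate 2, WT replicate 3 or ISM1-/- replicate 1, 0 of the 8 were called lower, and without ISM1-/- replicate 2 it was 1.

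Of 17 protease inhibitors and binding partners, 9 were tested and 1 rose, where 1.38% of all genes tested were called higher. The gene that rose was *Serpinb1a*, the cytosolic inhibitor of elastase, proteinase 3 and cathepsin G in neutrophils. It had 814, 798 and 801 counts in WT and 1132, 1020 and 1075 in ISM1-/-, without overlap and with little spread. Its log2 fold change was 0.40 (SE 0.0689, edgeR adjusted p = 0.0235). In ISM1-/- replicates 1, 2 and 3 it stood at 26.6, 26.9 and 27.6 CPM, which is not the order of libraries of *Ngp*, *Retnlg* and *S100a8*. Which cells of the lung carried this transcript was not tested. *Timp3*, *Timp2* and *Lrp1*, the most abundant of the list, were at 0.17, 0.01 and −0.20. *Timp1*, an inhibitor of the gelatinase encoded by *Mmp9*, was at −0.40 and did not pass. The hepatic alpha-1 antitrypsin genes *Serpina1a* to *Serpina1e* were under the filter.

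Markers of other cells that could carry these transcripts were read beside them. Erythroid genes, a sign of blood left after perfusion, overlapped between genotypes, with summed levels of 261, 137 and 448 CPM in WT and 150, 629 and 162 CPM in ISM1-/-, and 0 of 7 tested were called. The part of residual blood in the values of the granule genes was not tested. Of the platelet genes 0 of 6 were called (summed 18.2 to 20 CPM in WT, 20.4 to 24.2 in ISM1-/-). These sums did not overlap. Without overlap, 3 of the 6 genes were higher and 1 lower, beside 9.33% and 12.3% of all genes tested. Of the proliferation genes 0 of 6 were called (202 to 240 and 193 to 226), and of the alveolar macrophage genes 0 of 9 (238 to 268 and 220 to 249). Of the T cell genes it was 0 of 5 (31.9, 26.9 and 50.6 in WT replicates 1, 2 and 3, and 56.7, 44.4 and 35.9 in ISM1-/-). Of the neutrophil progenitor genes 0 of 3 were called, and those tested were *Prtn3*, *Chil3* and *Gfi1*. A further 6, among them *Mpo*, *Elane* and *Cebpe*, were under the filter. That list therefore does not show whether immature neutrophils differed. For the lists that follow, 1.38% of all genes tested were called higher and 3.34% lower. Among 8 monocyte genes *F13a1* fell by 0.65 and 0 rose, among 4 tested genes of mast cells, basophils and eosinophils *Mcpt4* fell by 1.39, and among 5 alveolar type 2 genes *Lyz1* rose by 0.61 on the log2 scale. B cell genes rose in 2 of 4 (*Ms4a1* and *Cd79a*), with summed levels of 81, 72.6 and 84.2 CPM in WT and 150, 113 and 84.2 CPM in ISM1-/-. In ISM1-/- the summed B cell and T cell levels both had the same order of libraries as *Ngp*, *Retnlg* and *S100a8*. Over the fits that left out 1 library, 4 of the 4 B cell genes were called without ISM1-/- replicate 3 and 0 in each of the other 5. The part of a general difference in leukocytes between the libraries in the values of the granule genes was not tested.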

How the data were processed

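RNA of perfused whole lungs from 3 WT and 3 ISM1-/- mice was analysed. The authors removed adaptors and low-quality reads, aligned the pairs with STAR (GRCm38) and deposited whole-number read counts per gene, without normalization. The counting program, annotation release and strand setting are not given in the sources used here. The authors also deposited FPKM values, which were used for levels between genes only. Per the labels, groups and replicate numbers come from the sample titles. No label names separate cultures or litters, and each library is 1 mouse.

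The analysis ran in edgeR 4.0.16 (R 4.3.3): a filter of 0.5 CPM in at least 1 library, TMM scaling and the quasi-likelihood test without covariates, with Benjamini-Hochberg adjustment over 18689 genes. Standard errors are the log2 fold change divided by the root of the F statistic. DESeq2 1.42.0 was an alternative. All pairs of libraries differed by more than sampling noise. In simulated counts with 200 genes changed 3-fold, 199 were called (99.5%), and 10.8% of 223 calls were unchanged genes. The changed genes were drawn only from genes with more counts than *Ngp*, *Camp* or *Prtn3*. The share recovered therefore does not cover members of few counts. The 10 members and the 16 lists of other genes were chosen with earlier results of these data known, and 2 genes of the lists are not reported here. All members, called list genes, the most abundant genes of each list and genes overlapping a member could be named. *Olfm4*, *Cebpe*, *Ly6g*, *Pglyrp1* and the other uncalled list genes were named after their values were seen. Total counts of about equal size (median 39101437) limit a gene of few counts by counting error.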

Additional observations from a re-analysis of the deposited data

How the results depend on the processing

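Of the 7 granule genes tested, 6 kept the sign of their log2 fold change under every alternative run. The exception was *Lcn2*, at −0.05 without WT replicate 1 and −0.04 without ISM1-/- replicate 1 (range −0.05 to 0.06 over the 6 libraries left out). The number of granule genes called higher, 1, was 2 with DESeq2 or the replicate block, 3 without a filter on low counts, 0 with a mean above 2 CPM, which removed *Ngp*, and 0 at an adjusted p under 0.05, and lay between 0 and 3 when each library was left out. The number called lower, 0, was 1 with DESeq2 and without a filter, and lay between 0 and 1 when each library was left out. The adjusted p of *Ngp* lay between 0.000307 and 0.175 over its alternatives and that of *Retnlg* between 0.0108 and 0.518. Over all genes, 882 calls became 1632 without a filter, 455 at an adjusted p under 0.05 and 106 with a 2-fold minimum, and lay between 150 and 1470 when each library was left out, highest without ISM1-/- replicate 3. The late minus specific level, −0.44, was 0.73 with summed CPM, 0.11 with a pseudocount of 0.5 CPM and −0.09 with *Lcn2* and *Mmp8* added. It was −1.10 without *Ltf*, an alternative chosen after seeing the data, and lay between −0.65 and −0.17 when each library was left out. The primary minus specific level, −1.16, was −0.26 with summed CPM, −0.53 with a pseudocount of 0.5 CPM, −0.81 with *Lcn2* and *Mmp8* added and −1.83 without *Ltf*. Apart from the removal of *Ngp*, the cause of these changes was not tested. Libraries that share a replicate number are different mice, as they differ in genotype. Their deviations from the group means correlated at −0.0105, 0.0332 and 0.0916 for numbers 1, 2 and 3. Not every library correlated best with its own number. With 3 libraries per genotype these values cannot settle whether libraries of 1 number were handled together. The replicate block gave 1105 calls over all genes and 2 granule genes higher, *Ngp* and *Retnlg* (adjusted p = 0.0948 in edgeR). *Mpo*, *Elane* and *Camp* were left out of the main test by its filter, and without one edgeR gave them adjusted p of 0.688, 0.777 and 0.0834, on at most 26 counts each.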

Other observations

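Over the 6 libraries, the genes whose log2 CPM followed the mean standardised level of *Ngp*, *Camp* and *Ltf* most closely, among 15871 candidates that averaged 1 CPM or more, were *Col4a2* (Pearson r 0.992), *F11r* (0.988), *4930579G18Rik* (0.988), *Gm26533* (0.988) and *Tpm4* (0.987). For *Mmp8*, *Mmp9* and *Retnlg* they were *Pak1ip1* (0.996), *Gm12992* (0.989), *Gm43863* (0.989), *Fgd3* (0.988) and *Ccr7* (0.983). All points share the 6 libraries and their genotypes, and none of these 10 genes passed the comparison of genotypes (edgeR adjusted p between 0.112 and 0.778). *Ltf* ran opposite to *Ngp* and *Camp* over these libraries (Pearson r −0.835 and −0.748), so the mean level of these genes mixes opposite courses. All these values are a description over few libraries.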
